A study of Caenorhabditis elegans with 2 samples.

Results

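The genes described here make carbohydrate from smaller carbon units in the nematode Caenorhabditis elegans, and the binding of the nuclear hormone receptor NHR-71 around them was read from chromatin immunoprecipitation sequencing peaks. They are 8 of the 19973 protein-coding genes on the nuclear chromosomes: icl-1 of the glyoxylate shunt, pyc-1, pck-1, pck-2 and fbp-1 of gluconeogenesis, tps-1 and tps-2 of trehalose synthesis, and gsy-1 of glycogen synthesis. They were chosen by pathway with the peaks of these same samples already known, so their positions, widths and signals are given as a description and were not tested. Each gene was taken with 5000 bp upstream of its annotated start, and these windows held 26 of the 8540 summits that passed the authors' threshold on the irreproducible discovery rate (IDR) between replicates. The study has 1 group of 2 biological replicates. All worms were hermaphrodites of strain OP480, which carries the unc-119(tm4063) allele on chromosome III and the integrated transgene wgIs480, from which NHR-71 is made with a GFP-FLAG tag at its C terminus. They were synchronized as first-stage (L1) larvae starved after bleaching and collected 6 h later, and whether they had food in those hours is not stated in the labels. The antibody was directed against GFP per the sample descriptions (the antibody field names nhr-71 itself), so the map shows the tagged protein made from this 1 transgenic line, averaged over all cells of whole larvae. Binding in fewer cells and weaker binding in each cell cannot be told apart in such a map. No other genotype or stage and no control library was analysed here.

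The glyoxylate shunt lets an animal turn the acetyl units of stored fat into malate and oxaloacetate without losing them as carbon dioxide. In C. elegans a single protein, encoded by icl-1, carries both enzymes of the shunt, isocitrate lyase and malate synthase. Pyruvate carboxylase (pyc-1) also makes oxaloacetate, phosphoenolpyruvate carboxykinase (pck-1 and pck-2) turns oxaloacetate into phosphoenolpyruvate, and fructose bisphosphatase (fbp-1) catalyses a late step that glycolysis does not share. The products are stored as trehalose, made by trehalose phosphate synthase (tps-1 and tps-2), or as glycogen, made by glycogen synthase (gsy-1). Newly hatched larvae without food live on maternal stores, chiefly fat and yolk. NHR-71 belongs to the nuclear hormone receptors, DNA-binding factors of which C. elegans has an unusually large family.

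The 200 bases around 6 summits are printed first, each on the strand of its gene and read from the RefSeq copy of WBcel235 (ce11). They were chosen as the strongest promoter summits (icl-1 and pyc-1), the strongest upstream summits beyond the promoter outside annotated protein-coding genes (pyc-1 and tps-2), the only summit of gsy-1 and the promoter summit of tps-1. The icl-1 stretch is chrV:728007-728206 on the minus strand. The pyc-1 stretches are chrV:11822576-11822775 (promoter) and chrV:11824109-11824308 (upstream), both on the minus strand. The tps-2 stretch is chrII:14598480-14598679 on the plus strand, the gsy-1 stretch is chrII:12878812-12879011 on the minus strand, and the tps-1 stretch is chrX:17474903-17475102 on the minus strand. Capitals mark matches on either strand to any of 5 short words: AGGTCA, the core bound by many nuclear receptors; TGATAA, a word of GATA factors; GTAAACA, a word of forkhead factors such as DAF-16; CACGTG, the E-box of basic helix-loop-helix factors; and the repeat GAGAGA.
icl-1 promoter: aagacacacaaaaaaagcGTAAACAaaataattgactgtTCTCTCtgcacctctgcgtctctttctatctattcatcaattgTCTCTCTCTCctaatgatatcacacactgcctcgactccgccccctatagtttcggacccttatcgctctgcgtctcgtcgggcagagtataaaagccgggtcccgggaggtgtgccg
pyc-1 promoter: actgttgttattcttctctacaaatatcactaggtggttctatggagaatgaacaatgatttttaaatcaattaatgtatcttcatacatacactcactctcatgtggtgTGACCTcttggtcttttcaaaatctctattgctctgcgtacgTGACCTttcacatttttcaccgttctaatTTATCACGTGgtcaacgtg
pyc-1 upstream: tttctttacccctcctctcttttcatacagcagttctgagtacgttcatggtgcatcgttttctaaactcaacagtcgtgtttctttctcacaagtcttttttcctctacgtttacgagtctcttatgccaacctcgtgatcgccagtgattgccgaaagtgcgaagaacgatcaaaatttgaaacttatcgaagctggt
tps-2 upstream: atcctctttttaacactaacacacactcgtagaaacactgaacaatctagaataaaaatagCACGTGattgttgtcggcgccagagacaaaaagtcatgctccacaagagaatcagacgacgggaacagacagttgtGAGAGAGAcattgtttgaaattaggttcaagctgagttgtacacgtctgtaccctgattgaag
gsy-1 promoter: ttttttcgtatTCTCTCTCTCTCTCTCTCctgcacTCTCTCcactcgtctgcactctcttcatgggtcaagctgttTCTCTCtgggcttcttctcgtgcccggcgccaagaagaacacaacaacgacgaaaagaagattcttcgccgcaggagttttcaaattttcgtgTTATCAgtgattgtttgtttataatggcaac
tps-1 promoter: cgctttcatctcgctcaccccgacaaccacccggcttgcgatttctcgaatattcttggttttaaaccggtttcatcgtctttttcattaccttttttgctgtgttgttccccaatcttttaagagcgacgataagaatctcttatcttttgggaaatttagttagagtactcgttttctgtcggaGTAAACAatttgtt

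The words were spread unevenly over these 6 stretches. The gsy-1 stretch held 9 overlapping matches to GAGAGA and the icl-1 stretch 4, while the pyc-1 upstream stretch, the strongest of the 6, held no match to any of the words. The pyc-1 promoter stretch held AGGTCA at 2 places, 1 TGATAA and 1 CACGTG, and the last pair share 2 bases. The icl-1 and tps-1 stretches each held GTAAACA once, and the tps-2 stretch held 1 CACGTG and 2 matches to GAGAGA. Base composition differed too, from 36% G and C at the pyc-1 promoter to 48.5% at the icl-1 promoter. Over all 26 member summits it ran from 31.5% to 54%, with a median of 42.5%, and the median over all IDR summits was 40.5%. The stretch at the promoter summit of pck-1 is not printed, though its signal (291.9) was above that of tps-1 (246.0). It held no match to any of the words and had 54% G and C.

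Over the 26 member summits, AGGTCA occurred within the 200 bases at 3, TGATAA at 8, GTAAACA at 5, CACGTG at 4 and GAGAGA at 9. All 3 summits with AGGTCA were summits of pyc-1. Among all 8540 IDR summits, windows of the same length held AGGTCA in 7% of cases, TGATAA in 19.8%, GTAAACA in 4.41%, CACGTG in 9.93% and GAGAGA in 38%. The GTAAACA matches lay at icl-1, pyc-1, pck-1, fbp-1 and tps-1, 1 summit each, and in windows of 100 bases 1 of the 26 summits held it, while the share over all IDR summits was 2.08%. A match is a description of the letters and says nothing about which protein binds there.

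All 8 genes had an IDR summit in the window, which 41.8% of all protein-coding genes had. All 8 also had one in the promoter window, which spans 1000 bp before the start and 200 bp after it, against 20.8% of all genes. Since the genes were picked with the peaks known, nothing is read from these counts. A summit inside the gene itself was found at 5 of the 8 (icl-1, pyc-1, pck-1, pck-2 and tps-1), against 9.45% of all genes. Of the 26 summits, 18 lay upstream and 8 inside a member gene, where 6 were in introns, 1 in a coding exon and 1 in a 5′ UTR. The number of summits per gene ran from 1 at gsy-1 to 6 at pck-2, with a median of 2.5. Among all genes with a summit in the window the median was 1. The members are 3373 to 11676 bp long, and neither this median nor the shares of all genes above were matched for gene length. The weakest of the 26, in pyc-1, had a signal of 85.2 at an IDR minimum of 84.1, and the strongest pooled position that missed the IDR set, in pck-1 and 2100 bp from its start, had 83.9.

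**Figure D1:**
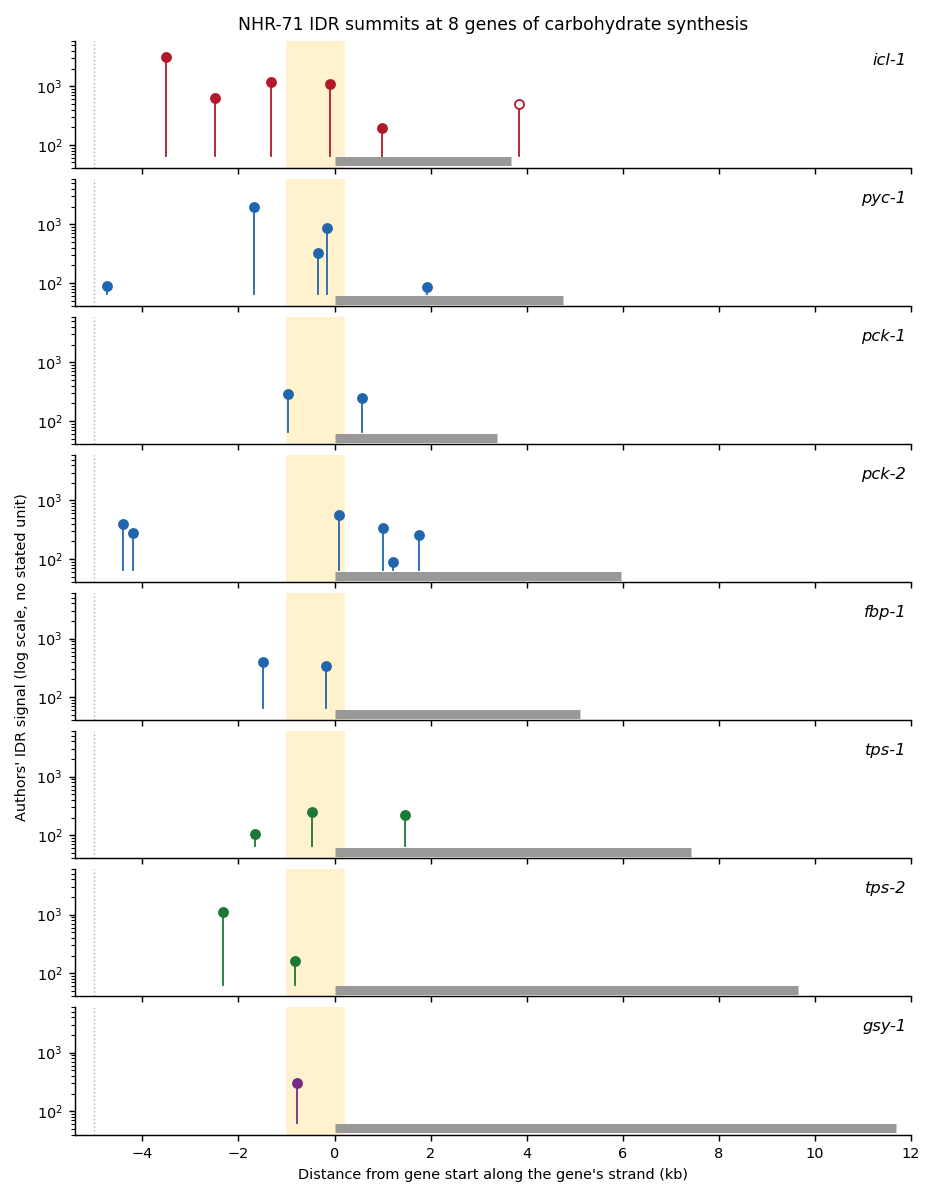
Each panel shows 1 gene (grey bar) on its own strand with distance from the gene start in kb on the x axis and the authors' IDR signal on a log y axis. Filled stems are IDR summits, the open stem is the summit of the wide icl-1 interval beyond the gene's end, the yellow band is the promoter window and the dotted line marks 5 kb upstream. The strongest stems of icl-1, pyc-1, tps-2 and fbp-1 stand upstream of the yellow band.

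The signal is the authors' own value per peak, with no stated unit, and the lists hold no read counts, so sequencing depth is unknown. Each replicate list holds 30000 ranked positions, and an IDR summit was given the signal of the nearest replicate summit within 100 bp. The log2 ratio of replicate 2 over replicate 1 was -0.12 in the median of the 8274 IDR summits found in both lists. Its SD over all of them, 0.47, serves here as a common yardstick, called the replicate error. The ratios scattered more at weak summits than at strong ones, so this yardstick is too wide for the strongest summits. Of the 26 member summits, 24 were found in both lists, with log2 ratios from -0.59 to 0.90 and an SD of 0.38. Of these, 12 were higher in replicate 1 and 12 in replicate 2, and 19 lay within 1 SD of the median of all summits. The summits found in only 1 list were that at 1931 bp inside pyc-1, with no summit of replicate 1 within reach, and that at 1218 bp inside pck-2, with none of replicate 2.

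**Figure D2:**
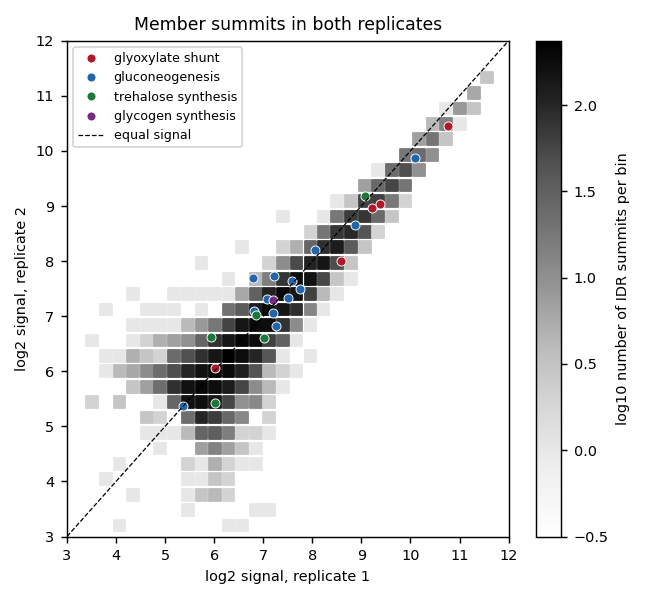
The log2 signal in replicate 1 (x axis) is plotted against that in replicate 2 (y axis). Grey squares count all IDR summits per bin, coloured points are the 24 member summits found in both lists by pathway, and the dashed line marks equal signal. The member summits lie within the cloud of all summits, with log2 ratios from -0.59 to 0.90.

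The gene icl-1 (WBGene00001564) lies on chromosome V from 724332 to 728004 on the minus strand, and it carried the broadest enrichment of the whole set. A single IDR interval from 723877 to 728420, 4544 bp wide, covered all 3673 bp of the gene and ran 416 bp past its start and 455 bp past its end. It was the widest of 8309 IDR intervals, whose median width was 420 bp and of which 0.554% reached 1000 bp, and the next widest had 4164 bp. It held 3 IDR summits. The strongest stood 103 bp upstream of the gene start, with a signal of 1097 in the IDR list, 598.9 in replicate 1 and 500.5 in replicate 2. The weakest, 989 bp inside the gene in an intron, had 192.2 in the IDR list, 64.6 in replicate 1 and 67.1 in replicate 2. The last of the 3 IDR summits stood beyond the 3′ end of icl-1, 213 bp from the start of the F-box gene fbxb-72. It had 507.8 in the IDR list, 332.1 in replicate 1 and 175.9 in replicate 2. With summits matched within 100 bp, it differed most of the 3 between the replicates. This ranking depends on the match limit. Replicate 1 had a stronger summit of 133.2 at 1126 bp inside the gene, too far from the summit at 989 bp to be matched to it. The log2 ratio of -0.92 at the summit beyond the 3′ end lay outside the range of the 24 member summits.

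The width of the icl-1 interval was not the same in both replicates. In replicate 1 a single interval of 4451 bp spanned the gene and held 9 summits, whose signals ran from 10.3 to 598.9. In replicate 2 the same stretch held 5 intervals with 9 summits in all, and the widest interval had 2130 bp. Those nearest the gene start overlapped and ran without a break from 366 bp upstream to 2476 bp inside the gene. Together the 5 intervals covered 75.3% of the gene. Among the 8540 positions of highest signal in each replicate, the share of the gene covered was 100% in replicate 1 and 50.2% in replicate 2. In both replicates the interval over icl-1 was still the widest of its list, ahead of 2884 bp in replicate 1 and 2060 bp in replicate 2. The pooled list held the same 4544 bp interval with 7 summits, of which the 4 below the IDR set lay inside the gene.

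**Figure D3:**
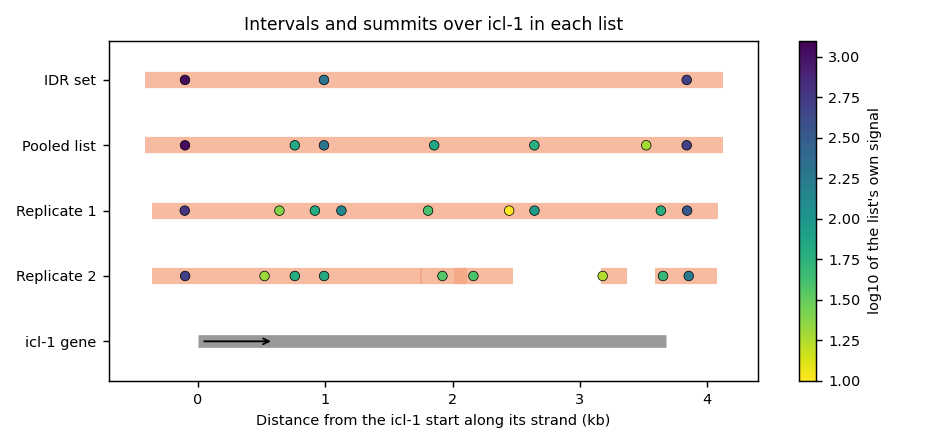
Orange bars are the intervals and dots the summits that each of the 4 lists holds over icl-1, with distance from the gene start in kb on the x axis and the colour of a dot giving log10 of the signal in its own list. Replicate 1 and the pooled list hold 1 interval over the whole gene. Replicate 2 holds 5, the widest of 2130 bp, some of them overlapping, with gaps towards the end of the gene.

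The gene icl-1, 1 of the 8 members, lay wholly inside a single IDR interval, which held for 0.125% of all protein-coding genes (25 genes). Most of the 25 were short, with a median length of 153 bp, and 7 were longer than 1000 bp. The genes most like icl-1 by the width of such an interval were mdl-1 (3870 bp), which encodes a Mad-like partner of the Max protein family, F26A3.4 (3486 bp), annotated as a protein tyrosine phosphatase gene, acer-1 (3027 bp), an acetyl-CoA hydrolase gene, and adh-1 (2162 bp), an alcohol dehydrogenase gene. Of the 7 longer genes, 4 lay inside 1 interval in replicate 1 and 0 did in replicate 2. For mdl-1 the widest interval was 2884 bp in replicate 1 and 2060 bp in replicate 2. For adh-1 it was 2084 bp and 636 bp.

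Upstream of icl-1 stood 3 further summits, all inside the neighbouring protein-coding gene on the opposite strand, which is transcribed away from icl-1. The strongest lay 3508 bp upstream of icl-1, in an interval from 731207 to 731889, with a signal of 3126 in the IDR list, 1740 in replicate 1 and 1408 in replicate 2. It ranked 27 in the IDR list, 26 in replicate 1 and 33 in replicate 2, and it is annotated as 5′ UTR of the neighbour. The others stood in an intron of that gene, 1333 bp upstream (1186.5 in the IDR set, 669.6 and 524.7 in replicates 1 and 2) and 2480 bp upstream (637.4, 383.8 and 255.0). For all 3 the start of the neighbour was nearer than that of icl-1. The promoter summit at 103 bp lies between this divergent pair of starts and is nearer to that of icl-1. Position alone does not say which of the neighbours a peak acts on.

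The gene pyc-1 (WBGene00004258), on chromosome V from 11817783 to 11822529 on the minus strand, had the second strongest summit of the group. It stood 1680 bp upstream, in the interval from 11823865 to 11824538, outside annotated protein-coding genes. Its signal was 2016 in the IDR list, 1088 in replicate 1 and 933.0 in replicate 2, with ranks of 101, 102 and 106. The start of D2023.4, 1553 bp away, was slightly nearer than that of pyc-1. The promoter interval of pyc-1, 851 bp wide, held a summit at 147 bp upstream with 869.6 in the IDR list, 469.7 in replicate 1 and 405.3 in replicate 2. It also held one at 352 bp upstream with 317.9 in the IDR list, 110.4 in replicate 1 and 206.2 in replicate 2. The log2 ratio of replicate 2 over replicate 1 at 352 bp was 0.90, above the 95th percentile of all IDR summits (0.63), as was only 1 other of the 24, the promoter summit of tps-2 (0.69). A weak summit at 4731 bp upstream (89.2 in the IDR set) lay 94 bp from the start of D2023.6. The weakest summit, in a coding exon 1931 bp inside pyc-1, had 85.2 in the IDR list and 69.9 in replicate 2.

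The phosphoenolpyruvate carboxykinase genes among the members, pck-1 and pck-2, differed in the number and place of their summits. The gene pck-1 (WBGene00021043), on chromosome III from 62888 to 66260 on the minus strand, had 2 narrow intervals of 263 and 272 bp. The summit 969 bp upstream had a signal of 291.9 in the IDR list, 135.6 in replicate 1 and 158.1 in replicate 2. The summit in an intron, 568 bp inside the gene, had 242.2, 112.9 and 137.4 in the same order. These values differed by less than the replicate error.

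The gene pck-2 (WBGene00011232), on chromosome I from 7866136 to 7872100 on the plus strand, had 6 summits, 4 of them inside the gene. The strongest lay 102 bp inside the annotated start in the 5′ UTR, 11 bp from the start of another annotated transcript of pck-2, with 553.7 in the IDR list, 267.0 in replicate 1 and 294.3 in replicate 2. Next to it an interval of 1568 bp, 1 of 18 IDR intervals of at least that width, lay inside the gene and held 3 summits, all in introns of pck-2. Their IDR signals were 335.5 at 1011 bp, 90.1 at 1218 bp and 253.2 at 1751 bp inside the gene. The small gene R11A5.6 lies wholly within that interval on the opposite strand, and the summit at 1751 bp stood in its coding exon, 31 bp from its start. IDR intervals covered 37.7% of pck-2, and the top positions of the replicates covered 30.5% and 28.4%. A separate pair of summits, 4190 and 4395 bp upstream (274.5 and 394.1), lay nearer to the start of R11A5.3.

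For fbp-1 (WBGene00001404), on chromosome I from 2581015 to 2586124 on the minus strand, both summits were upstream. The summit at 172 bp upstream had 340.7 in the IDR list, 180.7 in replicate 1 and 160.8 in replicate 2. The summit at 1499 bp upstream, in the 3′ UTR of ptr-12, had 396.0, 214.6 and 179.6. The latter exceeded the former by 0.25 on the log2 scale in replicate 1 and 0.16 in replicate 2, less than the replicate error of 0.47.

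The gene tps-2 (WBGene00006603), on chromosome II from 14600902 to 14610554 on the plus strand, is 1 of the trehalose phosphate synthase genes. Its main summit stood 2322 bp upstream in the interval from 14598347 to 14598799, outside annotated protein-coding genes. Of the protein-coding genes, tps-2 had the start nearest to this summit. The signal of this summit was 1120 in the IDR list, 541.2 in replicate 1 and 582.6 in replicate 2, with ranks of 400, 511 and 336. The promoter summit at 822 bp upstream had 159.8, 61.2 and 98.9. The main summit was higher by 3.14 on the log2 scale in replicate 1 and by 2.56 in replicate 2, well beyond the replicate error. Inside tps-2, a gene of 9653 bp, there was no IDR summit.

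The gene tps-1 (WBGene00006602), on chromosome X from 17467121 to 17474534 on the minus strand, had 3 summits in its window, of which 2 lay above and 1 below the median signal of all IDR summits (194). That at 469 bp upstream had 246.0 in the IDR list, 114.8 in replicate 1 and 129.7 in replicate 2. That in an intron 1467 bp inside the gene had 223.2, 129.7 and 96.9, so the order of these 2 summits turned between the replicates. The last, 1648 bp upstream, had 104.0, 64.4 and 42.7. A much stronger summit (1892 in the IDR list, 1010.4 in replicate 1 and 886.5 in replicate 2) stood just beyond the 5000 bp limit and was not counted. For gsy-1 (WBGene00001793), on chromosome II from 12866446 to 12878121 on the minus strand and the longest of the 8 at 11676 bp, the single IDR summit stood 791 bp upstream. Its signal was 306.0 in the IDR list, 146.2 in replicate 1 and 156.7 in replicate 2, and its interval of 202 bp was narrower than the median. The pooled list held 1 further position in the gsy-1 window, against 15 for tps-2.

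Ordered by their strongest summit, the genes ran from icl-1 over pyc-1, tps-2, pck-2, fbp-1, gsy-1 and pck-1 to tps-1. The order depends on the 5000 bp limit. For tps-1, in the last place, the uncounted summit just beyond that limit (1892 in the IDR list) is stronger than the strongest of tps-2 (1120). With 2000 bp upstream instead, icl-1 (1186.5) stood below pyc-1 (2015.6), and tps-2 (159.8) fell to the last place. Within the 5000 bp limit, the order of the strongest summits was the same in both replicates except that gsy-1 and pck-1 changed places in replicate 2. The gaps from icl-1 to pyc-1 (log2 difference of 0.68 in replicate 1 and 0.59 in replicate 2), from pyc-1 to tps-2 (1.01 and 0.68) and from tps-2 to pck-2 (1.02 and 0.99) exceeded the replicate SD of 0.47 in both replicates. The 4 gaps further down did not do so in both. By promoter summit alone, only the gap from pck-2 to fbp-1 (0.56 and 0.87) did, and tps-2 fell from the third place to the last. Because this SD is too wide for strong summits, a smaller gap between such summits is not shown to be replicate scatter. The strongest summit lay above a signal of 1000 at 3 of the 8 genes (icl-1, pyc-1 and tps-2), against 11.2% of genes with a summit in the window. The median of the strongest signals was 475 over the 8 genes and 301 over all 8341 such genes.

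In icl-1, pyc-1, tps-2 and fbp-1 the strongest summit lay outside the promoter window, 4 of 8 genes against 62.3% of all genes with a summit in the window. For icl-1 the upstream summit exceeded the promoter summit by 1.54 on the log2 scale in replicate 1 and 1.49 in replicate 2. For pyc-1 it did so by 1.21 in replicate 1 and by nearly as much in replicate 2. For tps-2 the difference was larger still, and for fbp-1 it was within the replicate error.

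**Figure D4:**
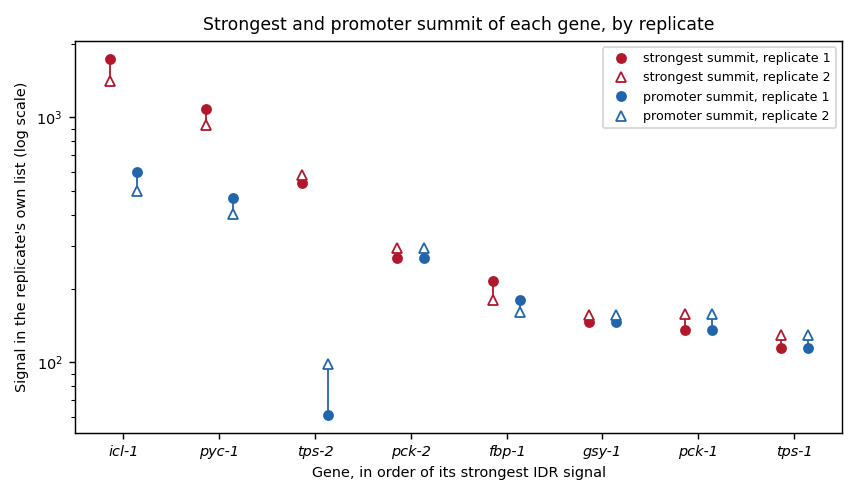
For each gene, the signal in the replicate's own list (log y axis) is shown for its strongest IDR summit (red) and its strongest promoter summit (blue), as a filled circle for replicate 1 and an open triangle for replicate 2, joined by a line. Red and blue are apart for icl-1, pyc-1 and tps-2 and lie close together or coincide for the other 5 genes.

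Of the 13 genes of trehalose and glycogen turnover, 8 had an IDR summit in the window and 6 in the promoter. The highest signals were at aagr-3, an acid alpha-glucosidase gene (1815.5, with the start of drap-1 nearer), at tre-1, a trehalase gene (1138.8, 59 bp upstream of its start), and at tre-2, another trehalase gene (796.6, 4328 bp inside the gene). All 11 genes of the reversible steps that gluconeogenesis shares with glycolysis had a summit in the window, and 6 had one in the promoter. The highest signal in that list was at ipgm-1, the phosphoglycerate mutase gene (1718.1, but 176 bp from the start of bag-1), followed by a summit of 425.4 that gpd-2 and gpd-3, neighbouring glyceraldehyde phosphate dehydrogenase genes, share. That summit lay 537 bp upstream of gpd-2, in an interval of 2104 bp that covered the whole gene mai-1. The dehydrogenase genes are close copies of each other, and the treatment of reads that map to several places was not stated.

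Of 8 genes for oxaloacetate and malate, 6 had a summit in the window and 5 in the promoter. In the list, got-1.2, an aspartate aminotransferase gene, had 2131.5 (at 3902 bp upstream, nearer to the start of aak-2), cts-1, the citrate synthase gene, 831.7 (407.7 in replicate 2, with no summit of replicate 1 within 100 bp), and mdh-2, a malate dehydrogenase gene, 747.1. Of 12 genes listed for glycolysis or pyruvate oxidation outside the shared reversible steps, 8 had a summit in the window and 4 in the promoter. Here pyk-1, a pyruvate kinase gene, had 1803.6 (20 bp from the start of eef-2, and thus 4921 bp from its own), and the hexokinase genes hxk-1 and hxk-3 had 669.7 and 602.0. The shares over all protein-coding genes are those given above, 41.8% for the window and 20.8% for the promoter.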

How the data were processed

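Whole L1 larvae of 1 group with 2 biological replicates were studied by chromatin immunoprecipitation against a GFP tag on NHR-71. The authors deposited, per the submitters' file list, a peak list with a signal value per position for each replicate, for the pooled replicates and for the set that passed their IDR threshold, on ce11 and ce10. Replicate and pooled lists were called against a control. Aligner, peak caller, IDR cut-off and signal scale were not given in the sources used here. All 8540 IDR positions recur unchanged at the top of the pooled list. Read depth is unknown, so no counting interval is given.

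Genes came from Ensembl release 115 (WBcel235) and sequence from the RefSeq copy of that assembly. All coordinates are ce11 and 1-based. A summit is the interval start plus the deposited offset, and where the offset equals the width the last base was used. Assignment and coverage were tested on simulated data. The analysis used Python 3.11.15, NumPy 2.4.6, pandas 2.3.3 and Matplotlib 3.10.9. The members, gene lists and words were chosen with earlier results of these data known, and no test was run. Of 47 listed pathway genes, 44 matched a protein-coding gene. Named beside the members are genes whose start is nearer to a member's summit, the 3 genes of highest signal in each list, and the 5 genes of widest whole-gene interval, icl-1 included. Outside this rule, ptr-12, drap-1, bag-1, mai-1, aak-2 and eef-2 are named for their position at a summit and were chosen after its values were seen. The neighbour upstream of icl-1 is given by position only and its name is not reported here. Alternatives were other windows, nearest-gene assignment, the stronger part of the IDR set, single lists and ce10.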

Additional observations from a re-analysis of the deposited data

How the results depend on the processing

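The count of genes with a summit in gene body and upstream window was 8 of 8 with 2000 or 1000 bp upstream, with the 4270 IDR summits of higher signal, in the top 8540 positions of each replicate list and with each summit given only to the nearest gene start. The pooled list holds all IDR positions, so it could not lower either count of genes. The promoter count was 7 with the 4270 stronger summits and 5 with windows from 500 bp upstream, where pck-1, tps-2 and gsy-1 were lost, and it was 8 under the other alternatives. Without replicate 1 the widest interval listed over icl-1 had 2130 bp, and without replicate 2 it had 4451 bp. It had 4548 bp in the ce10 IDR set. With 2000 bp upstream the strongest signal was 1186.5 instead of 3126 for icl-1 and 159.8 instead of 1120 for tps-2. With the top positions of replicate 1 alone, intervals covered 8.62% of tps-2 instead of 0%. In windows of 100 bases TGATAA was at 4 member summits instead of 8 (10.8% instead of 19.8% of all IDR summits) and GTAAACA at 1 instead of 5 (2.08% instead of 4.41%). Signals in a single replicate list are lower than in the pooled list for every gene at its strongest summit, so only orders and ratios were compared. For 5 genes the strongest summit could be matched in ce10, by signal within 1% and width within 10 bp, with signals from 304.5 to 3127. No paired analysis was possible because the study has 1 group. With 2 replicates and no read counts, small differences between summits cannot be resolved.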
